A study of Mus musculus with 12 samples.

Results

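The 4 Id genes, 5 SMAD genes of the BMP pathway and the receptor gene Bmpr2 were followed through RNA-seq of mouse oocytes that had lost Polycomb repressive complex 2 (PRC2) or were labelled as PRC1 conditional knockouts (cKO). The 10 genes, Id1, Id2, Id3, Id4, Smad1, Smad5, Smad9, Smad6, Smad7 and Bmpr2, were taken by gene name, and all 10 were found among the 55385 gene models of the PRC2 table and the 55401 of the PRC1 table. They were chosen by name after changes of TPM in these same libraries had been seen, and which comparison drew them was not recorded. The tests below therefore describe these genes and give no independent support.

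Bone morphogenetic proteins bind pairs of type I and type II receptors, and Bmpr2 encodes a type II receptor. The receptors phosphorylate SMAD1, SMAD5 and SMAD9, which enter the nucleus with the common partner SMAD4, while SMAD6 and SMAD7 are inhibitory SMADs that the pathway itself induces in many cells. The Id genes are the classical immediate targets of these SMADs. ID proteins hold E proteins and other basic helix-loop-helix factors in complexes that cannot bind DNA, and they are widely associated with undifferentiated and proliferating cells. In the ovary, oocytes make BMP15 and GDF9 of the same ligand superfamily, and Id genes are used in granulosa cells as a readout of BMP and AMH.

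The study held 12 libraries, 2 in each of 6 groups, and read lengths and kits were common to all. PRC2 cKO oocytes were Eed F/-; Ddx4-Cre and their controls Eed F/+; Ddx4-Cre, each as growing oocytes from ovaries at postnatal day 7 and as non-growing oocytes at postnatal day 6. Eed encodes a core subunit of PRC2, and Ddx4-Cre acts in germ cells. PRC1 cKO growing oocytes of postnatal day 7 carried the label Ring1-/-; Ring1 F/-; Ddx4-Cre, which names Ring1 a second time where Rnf2 may be meant. Their controls, of the same day, were Ring1-/-; Rnf2 F/+; Ddx4-Cre, so both PRC1 genotypes lacked Ring1. Ring1 and Rnf2 encode alternative ubiquitin ligases of PRC1. Stage and day differed together in the PRC2 groups and cannot be told apart.

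Values are in TPM, transcript abundances that divide by transcript length and by the library total, so levels can be compared between genes, the sequencing depth is unknown and no counting interval can be given. Fold changes are differences of log2(TPM + 1), a scale that understates changes of low genes. The test was limma over all genes that reached 1 TPM in 2 or more libraries of a table, Benjamini-Hochberg adjusted, at a threshold of 0.05. The labels do not say that libraries came from separate animals, so p-values may measure technical spread. In pooled cells, fewer cells of a type and less RNA per cell cannot be told apart.

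The libraries had the RNA of oocytes, since 14 of 14 oocyte markers reached 1 TPM in every library. Eed was at 9.64 to 12.1 TPM in the PRC2 cKO libraries and at 60.5 to 90.5 TPM in the PRC2 control libraries. Rnf2 was at 87.8 and 61.4 TPM in PRC1 cKO and at 59.2 and 53.8 TPM in PRC1 control, and Ring1 was at or below 0.02 TPM in all 4 of these libraries. The sources used here do not say which part of Rnf2 Cre removes, and the gene total therefore does not check that label.

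The Id genes are small genes on separate chromosomes. On GRCm38, Id1 spans chr2:152736251-152737410 and Id3 chr4:136143497-136145755 on the plus strand, Id2 spans chr12:25093799-25097140 on the minus strand and Id4 chr13:48261228-48266026 on the plus strand. BMP-responsive elements of Id promoters are known for the GC-rich SMAD motif GGCGCC. A related SMAD motif has the letters GGAGCC. The promoter sequences of Id2, Id3 and Id4 are shown because these members of the family differed in their changes with growth. No promoter sequence is shown for Id1, whose change with growth was larger than theirs. They are 300-base windows from RefSeq on GRCm38.p6, with 250 bases before and 50 after the annotated start, 5′ to 3′ on the strand of the gene. Capitals mark either motif, on either strand.
Id2, chr12:25096043-25096342, minus strand: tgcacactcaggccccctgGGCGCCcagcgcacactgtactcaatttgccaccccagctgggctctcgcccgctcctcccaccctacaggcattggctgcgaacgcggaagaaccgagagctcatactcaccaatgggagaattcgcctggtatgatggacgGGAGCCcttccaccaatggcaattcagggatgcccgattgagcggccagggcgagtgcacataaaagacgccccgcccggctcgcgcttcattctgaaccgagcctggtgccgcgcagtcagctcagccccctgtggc
Id3, chr4:136143572-136143871, plus strand: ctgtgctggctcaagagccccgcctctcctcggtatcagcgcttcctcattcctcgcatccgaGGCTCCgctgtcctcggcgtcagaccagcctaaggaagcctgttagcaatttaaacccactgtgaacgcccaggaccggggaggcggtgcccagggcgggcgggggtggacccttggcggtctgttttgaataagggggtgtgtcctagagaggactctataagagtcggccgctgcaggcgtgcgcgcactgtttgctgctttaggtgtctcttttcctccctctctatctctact
Id4, chr13:48260866-48261165, plus strand: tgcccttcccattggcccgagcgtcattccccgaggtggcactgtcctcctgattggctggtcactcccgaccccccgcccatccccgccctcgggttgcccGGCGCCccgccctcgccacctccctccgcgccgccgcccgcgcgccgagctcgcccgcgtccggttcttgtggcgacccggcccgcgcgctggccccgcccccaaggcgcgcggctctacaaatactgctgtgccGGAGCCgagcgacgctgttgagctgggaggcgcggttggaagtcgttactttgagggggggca
The Id2 window held 1 match to the GC-rich motif and 1 to the related one, starting at positions -231 and -88 from the annotated start. The Id4 window held 1 of each, at -148 and -13. The Id3 window held only the related motif, at -187 and in reverse complement. The GC-rich motif was present in 11.9% and the related motif in 30.8% of all 32851 promoters of this length, counting both strands. The E-box letters CANNTG, the kind of site that E proteins bind, were found on 72.3% of all promoters and once in the Id2 window. The windows of Id2 and Id3 lie inside the deposited gene spans, because the RefSeq start of each is downstream of the earliest start in those spans. Sequences were matched for 8 of the 10 genes, and a match is a description of the letters only.

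Id1 was the most abundant Id RNA in non-growing oocytes and a minor one in growing oocytes. Id1 had 15.5 and 15.7 TPM in PRC2 cKO growing oocytes, against 228 and 526 TPM in the non-growing PRC2 cKO oocytes. In PRC2 control it had 6.45 and 8.76 TPM in growing oocytes and 116 and 137 TPM in non-growing oocytes. All 4 growing libraries were far below all 4 non-growing ones. Growing libraries lay below non-growing ones without overlap in 54.1% of all genes tested in cKO and 66.2% in control. The log2 change, growing over non-growing, was -4.39 in PRC2 cKO (SE 0.36, limma adjusted p = 5.92e-05) and -3.90 in PRC2 control (SE 0.36, limma adjusted p = 9.85e-05). In TPM + 1, Id1 fell 21.0-fold in cKO and 14.9-fold in control, and among the 14153 genes tested its change ranked 9 from the lowest in cKO and 43 in control.

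Id2 fell too, in both genotypes. It had 27.8 and 24.8 TPM in PRC2 cKO growing oocytes, against 202 and 413 TPM in the non-growing PRC2 cKO oocytes. In PRC2 control it had 14.7 and 19.8 TPM in growing oocytes and 73.1 and 69.9 TPM in non-growing oocytes. Each growing library was below each non-growing library of either genotype. The log2 change was -3.41 in PRC2 cKO (SE 0.32, limma adjusted p = 9.84e-05) and -2.01 in PRC2 control (SE 0.32, limma adjusted p = 0.00116). The difference between these changes is the same quantity as the difference of the cKO effects given further on, which did not pass.

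Id3 did not share this pattern. It had 56.6 and 68.6 TPM in PRC2 cKO growing oocytes and 80.9 and 115 TPM in the non-growing PRC2 cKO oocytes, but 92.7 and 89.7 TPM in control growing oocytes and 64.4 and 66.3 TPM in control non-growing oocytes. Both growing libraries lay below both non-growing ones in cKO and above them in control. Id3 fell during growth in cKO (log2 change -0.63, SE 0.18, limma adjusted p = 0.0171) and rose in control (0.48, SE 0.18, limma adjusted p = 0.045). The cKO call was lost under quantile, trimmed-mean and protein-coding scaling, with values of -0.10, -0.06 and -0.14. In control the value grew under the same scalings, to values of 1.11, 1.23 and 0.97, but the control call was lost with no filter and without the variance trend (limma adjusted p = 0.0967 and 0.0643) and in 4 of 8 fits that left out 1 library.

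Id4 was the lowest of the family. It had 0.31 and 0.13 TPM in PRC2 cKO growing oocytes and 1.24 and 1.72 TPM in the non-growing PRC2 cKO oocytes, and 0.16 TPM in both control growing libraries against 0.90 and 0.66 TPM in control non-growing ones. It passed the filter only through the 2 PRC2 cKO non-growing libraries, so it had to differ from the rest in them. The log2 changes with growth were -1.02 in cKO (SE 0.17, limma adjusted p = 0.00181) and -0.61 in control (SE 0.17, limma adjusted p = 0.0165). The control call was lost under trimmed-mean scaling, at -0.40 (limma adjusted p = 0.0877), and in 3 of 8 fits that left out 1 library. Genes annotated over Id4 on the other strand, A330033J07Rik and Gm49291, were at 0.63 TPM or less, and the sources do not say whether counting used the strand.

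**Figure D1:**
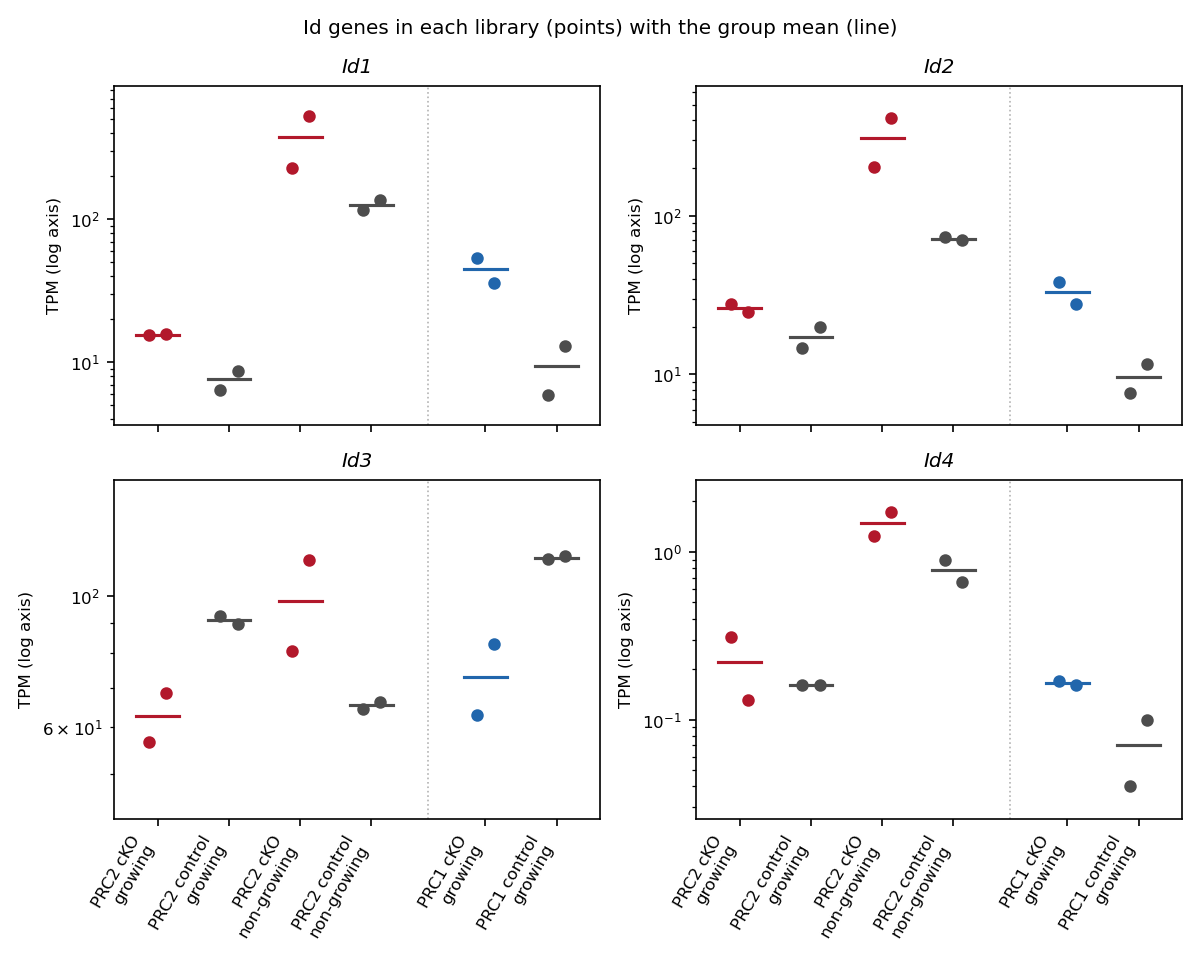
TPM of Id1, Id2, Id3 and Id4 on log axes in each library, with red points for PRC2 cKO, blue for PRC1 cKO, grey for controls and a line at each group mean; the dotted line separates the 2 tables. Id1 lies at 6.45 to 15.7 TPM in the 4 PRC2 growing libraries and at 116 to 526 TPM in the 4 non-growing ones, while Id3 stays within 56.6 to 117 TPM in all 12.

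These changes moved the make-up of the Id RNA. Id1 came before Id2 and Id2 before Id3 in each of the 4 non-growing libraries, and Id3 was the most abundant member in each of the 8 growing ones. In PRC2 cKO oocytes Id3 made up 56.5% and 62.8% of the summed Id TPM in growing libraries and 15.8% and 10.9% in non-growing libraries. In PRC2 control it made up 81.3% and 75.7% in growing libraries and 25.3% and 24.2% in non-growing libraries. The sum itself was 100.1 and 109 TPM in PRC2 cKO growing oocytes, 114 and 118 TPM in control growing oocytes, 512 and 1057 TPM in the non-growing PRC2 cKO oocytes, and 254 and 274 TPM in control non-growing oocytes. The shares of the PRC2 groups show a switch from Id1 in non-growing to Id3 in growing libraries in both genotypes. A ratio within a library shows unequal change of the members and does not depend on the library total.

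**Figure D2:**
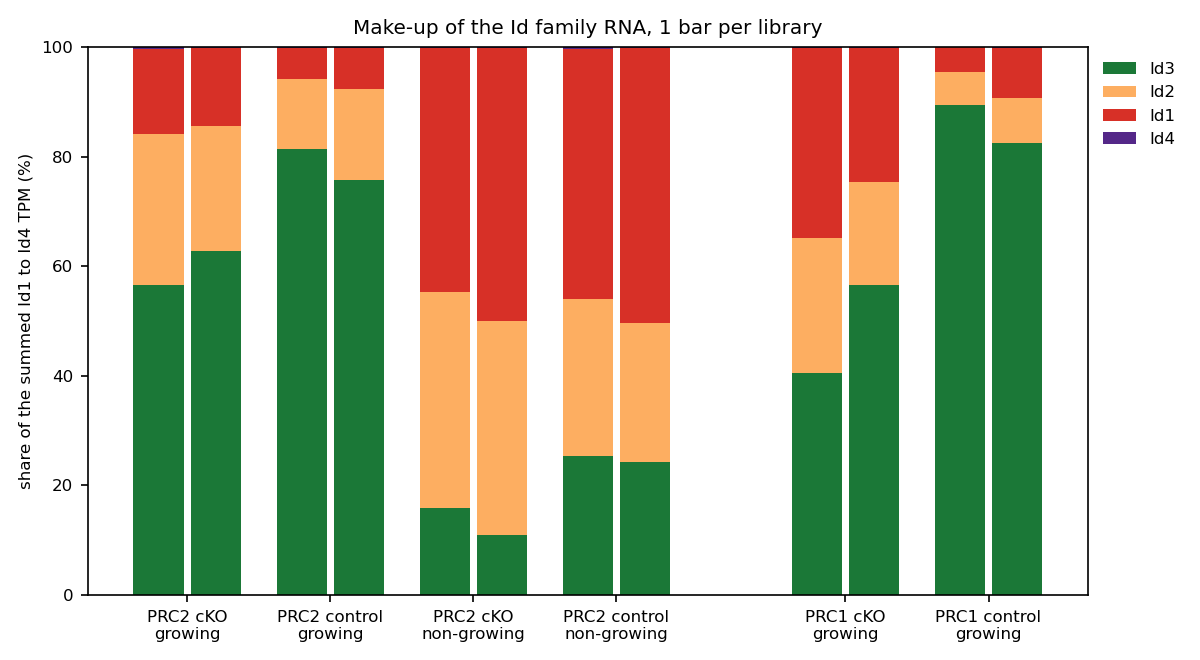
Share of each Id gene in the summed TPM of the 4 Id genes, in percent, with 1 bar per library. Id3, in green, takes 10.9% to 25.3% in non-growing libraries, 40.5% to 62.8% in growing cKO libraries and 75.7% to 89.5% in growing control libraries.

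Growth changed most of the transcriptome, and the members must be read against that. Of the 14153 genes tested, 66.1% were called in PRC2 cKO and 70.6% in PRC2 control. In cKO, 5 of the 7 members tested were called, all lower, where 46% of all genes were called lower and 20.1% higher. Id4 is 1 of these 5, and it passed the filter only through the cKO non-growing libraries, so its lower value in growing cKO oocytes was fixed by that filter. In control, 6 were called, 5 lower and 1 higher, where 54% of all genes were called lower and 16.6% higher. The median change was -0.45 over all genes and -0.63 over the 7 members in cKO, and -0.67 over all genes and -0.61 over the members in control. The members as a list were therefore near the background, and only Id1 and Id2 lay far out in it, at percentiles 0.06 and 0.33 of all changes in cKO and 0.30 and 6.89 in control.

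The library total differed by stage. Unconfirmed gene models of the class TEC took 23.3% to 25.9% of all TPM in PRC2 growing libraries of either genotype and 2.26% to 2.57% in non-growing ones, and nuclear protein-coding genes took 58.5% to 61.9% in growing and 84.0% to 86.4% in non-growing ones. Under quantile, trimmed-mean and protein-coding scaling, the median of all genes moved by 0.24 to 0.60, while Id1 and Id2 kept their direction and their call in both genotypes in all 11 other settings and in all 8 fits without 1 library.

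Immediate-early genes, a list added after the members' values had been seen, also moved with stage. These 9 genes, among them Fos and Ier2, are switched on within minutes by growth factors and by handling, as Id genes can be. Their summed level was 40.8 to 59.4 TPM in PRC2 cKO growing oocytes and 30.1 to 37.3 TPM in control growing oocytes, against 84.5 to 122 TPM in cKO and 103 to 116 TPM in control non-growing oocytes. Of 7 tested, 5 were lower and 1 higher in cKO, where 46% of all genes were called lower and 20.1% higher. In control, 4 were lower and 1 higher, where 54% of all genes were called lower and 16.6% higher. The control counts were thus near the background. The part of the immediate-early genes in these Id changes was not tested.

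In non-growing oocytes, all 4 Id genes lay above the control libraries in both PRC2 cKO libraries, but none passed the test. For Id4 this order was fixed, because it passed the filter only through these 2 cKO libraries. Id1 averaged 377 ± 211 TPM in PRC2 cKO and 127 ± 15.2 TPM in control (SD, n = 2 each), a change of 1.45 on the log2 scale (SE 0.36, limma adjusted p = 0.162). Id2 averaged 308 ± 149 TPM in PRC2 cKO and 71.5 ± 2.29 TPM in control (SD, n = 2 each), a change of 2.00 (SE 0.32, limma adjusted p = 0.0662). The 2 cKO libraries differed widely from each other in both genes, with replicate 2 the higher each time. Without cKO replicate 1, both genes were called, with changes of 2.05 and 2.52 (limma adjusted p = 0.0364 and 0.0217), and without cKO replicate 2 the values were 0.85 and 1.49. Id3 averaged 98.2 ± 24.4 TPM in cKO and 65.3 ± 1.37 TPM in control (SD, n = 2 each), a change of 0.56 (limma adjusted p = 0.229), and Id4 averaged 1.48 ± 0.339 TPM in cKO and 0.78 ± 0.170 TPM in control, a change of 0.48 (limma adjusted p = 0.272).

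The comparison as a whole called few genes, 44 of 14153 or 0.311%, and 2316 reached an unadjusted p under 0.05. None of the 7 members tested was called, and 4 of them, Id1, Id2, Id3 and Id4, were among those below 0.05 unadjusted. Of these, Id4 had to be higher in cKO, because it passed the filter only through the cKO non-growing libraries. Both cKO libraries lay above both controls in 20.3% of all genes, so the same order in a single Id gene is common. In size, the changes of Id2 and Id1 were the 35th and the 98th highest of the 14153. Immediate-early genes summed to 84.5 TPM in cKO replicate 1 and 122 TPM in cKO replicate 2, where the Id genes were also higher, and to 103 to 116 TPM in control. Stromal markers summed to 5.44 to 6.28 TPM in cKO and 3.24 to 3.85 TPM in control, most of it Dcn, and 2 of 10 against 1 of 10 reached 1 TPM. Their part in the Id values was not tested.

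In growing oocytes the PRC2 cKO libraries lay above control in Id1 and below it in Id3, again without a call. Id1 averaged 15.6 ± 0.163 TPM in PRC2 cKO and 7.61 ± 1.63 TPM in control (SD, n = 2 each), a change of 0.96 on the log2 scale (SE 0.36, limma adjusted p = 0.479). Id2 averaged 26.3 ± 2.07 TPM in cKO and 17.2 ± 3.66 TPM in control (SD, n = 2 each), a change of 0.59 (limma adjusted p = 0.583). Id3 averaged 62.6 ± 8.50 TPM in cKO and 91.2 ± 2.10 TPM in control (SD, n = 2 each), a change of -0.54 (SE 0.18, limma adjusted p = 0.408). In each of these 3 genes the groups did not overlap, with cKO above control for Id1 and Id2 and below it for Id3. No overlap with cKO higher was seen in 23.5% of all genes and with cKO lower in 13%. Of 14153 genes, 24 or 0.17% were called and 1407 had an unadjusted p under 0.05, among them Id1 and Id3. Id4 had 0.31 and 0.13 TPM in cKO, on both sides of the 0.16 TPM of each control library (limma adjusted p = 0.9).

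Whether the PRC2 cKO effect differed between stages was tested as an interaction, in which 14 genes or 0.0989% of 14153 were called and 2230 had an unadjusted p under 0.05, among them Id2 and Id3. No member was called. The difference, growing minus non-growing, was -1.10 for Id3 (SE 0.25, limma adjusted p = 0.285), -1.41 for Id2 (SE 0.45, limma adjusted p = 0.305), -0.49 for Id1 (limma adjusted p = 0.624) and -0.41 for Id4 (limma adjusted p = 0.414). Without PRC2 cKO growing replicate 1 the comparison called 842 genes, and no member was among them.

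In PRC1 cKO growing oocytes, Id1 and Id2 rose and Id3 fell. Id1 had 54.0 and 36.1 TPM in PRC1 cKO, against 5.91 and 13.1 TPM in PRC1 control. Id2 had 38.1 and 27.6 TPM in PRC1 cKO, against 7.58 and 11.6 TPM in PRC1 control. Both PRC1 cKO libraries exceeded both controls in either gene, an order that 62.3% of all genes tested shared. The log2 change was 2.20 for Id1 (SE 0.40, limma adjusted p = 0.0111), which is 4.58-fold in TPM + 1, and 1.69 for Id2 (SE 0.28, limma adjusted p = 0.00864), which is 3.22-fold. Id3 had 62.9 and 82.9 TPM in PRC1 cKO, against 116 and 117 TPM in PRC1 control, so that both cKO libraries were below both controls, as in 15.2% of all genes. It fell by 0.68 on the log2 scale (SE 0.18, limma adjusted p = 0.0293). Id3 still made up 40.5% and 56.5% of the Id sum in PRC1 cKO, against 89.5% and 82.5% in PRC1 control, and the sum was 155 and 147 TPM in cKO and 129 and 142 TPM in control. Id4 was at 0.17 and 0.16 TPM in PRC1 cKO and at 0.04 and 0.10 TPM in PRC1 control, and it did not pass the filter.

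The PRC1 comparison called 7140 of 14941 genes, or 47.8%, with 41.3% higher and 6.45% lower, and the median change of all genes was 0.55. Of the 8 members tested, 6 were called, 5 higher and 1 lower, with a median of 0.71, and 2 of those 5, Smad7 and Smad9, passed the filter only through the cKO libraries. Id1 and Id2 stood at percentiles 94.5 and 89.3 of all changes and Id3 at 6.94. TEC models took 11.1% and 14.9% of all TPM in PRC1 cKO, against 22.5% and 20.9% in PRC1 control. Quantile, trimmed-mean and protein-coding scaling moved the median of all genes by -0.59, -0.49 and -0.18, under which Id1 was 1.73, 1.65 and 2.01 and Id2 was 1.19, 1.14 and 1.49. Id3 was -0.99, -1.25 and -0.92 under the same scalings and kept its call in each. Of all 11 other settings, 9 held the Id3 call, and limma adjusted p reached 0.0719. Without PRC1 cKO replicate 1, whose Id1 and Id2 were the higher, limma adjusted p was 0.0795 for Id1 and 0.0587 for Id2. The Id3 call was held in 1 of 4 fits without 1 library and was lost with a replicate block (limma adjusted p = 0.063).

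Other genes moved in the same PRC1 cKO libraries. Granulosa cell markers summed to 25.0 to 36.8 TPM in PRC1 cKO and 9.83 to 12.7 TPM in PRC1 control. Of the 12 markers, 5 in cKO and 2 in control reached 1 TPM. Most of the control sum came from Nr5a2, which was lower in cKO, at 3.77 and 4.04 TPM against 6.4 and 6.62 TPM in control. That fall was not called (limma adjusted p = 0.0632). Of the 4 granulosa markers tested, 3 were called higher, and 1 of these, Cyp19a1, passed the filter only through the cKO libraries. The defining granulosa gene Foxl2 was at 0.19 and 0.14 TPM in cKO and at 0 in control, while Inha was at 17.2 and 10.9 TPM in cKO and 0.59 and 2.68 TPM in control. Stromal markers summed to 6.34 to 9.49 TPM in cKO and 1.67 to 2.99 TPM in control, with 1 to 3 against 0 to 1 of 10 at 1 TPM, and most of the cKO sum came from Nr2f2, at 4.56 and 4.98 TPM in cKO and 0.72 and 0.27 TPM in control. Dcn was at 0.70 and 2.09 TPM in cKO and 0.06 and 0.32 TPM in control, and Lum at 0.11 and 1.08 TPM in cKO and 0 in control. Acta2 was at 0.05 and 0.10 TPM in cKO and 2.13 and 0.84 TPM in control, and Tcf21 was at 0 in both cKO libraries. Endothelial markers summed to 15.0 to 16.0 TPM in cKO and 6.51 to 7.74 TPM in control, with 5 against 2 of 8 at 1 TPM and most of the control sum from Pecam1. Of 5 endothelial markers tested, 4 were called higher, namely Tek and 3 that passed the filter only through the cKO libraries. Those 3 were Cldn5, at 3.54 and 2.63 TPM in cKO and 0.11 and 0.15 TPM in control, Egfl7, at 3.17 and 2.17 TPM in cKO and 0.17 and 0.26 TPM in control, and Flt1, at 2.35 and 1.82 TPM in cKO and 0.27 and 0.29 TPM in control. Cdh5 and Kdr were at 0.10 TPM or less in all 4 libraries.

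Immune markers summed to 4.69 to 8.91 TPM in PRC1 cKO and 3.03 to 3.67 TPM in PRC1 control, and erythroid markers to 2.38 to 2.40 TPM in cKO and 0.25 to 0.85 TPM in control. Of 8 immune markers, 2 in cKO and 1 to 2 in control reached 1 TPM, and no erythroid marker did. Immediate-early genes summed to 99.7 to 135 TPM in PRC1 cKO and 35.3 to 43.0 TPM in PRC1 control. Of 7 tested, 5 were called higher, where 41.3% of all genes were. Of these 5, Atf3 and Jun passed the filter only through the cKO libraries, so they had to be higher there. Within this list Fos was at 28.1 and 13.3 TPM in cKO and at 1.95 and 1.90 TPM in control. More genes were detected as well, with 15582 and 14940 at 1 TPM or more in cKO and 12313 and 12592 in control. The part of these marker genes and immediate-early genes in the Id changes was not tested.

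**Figure D3:**
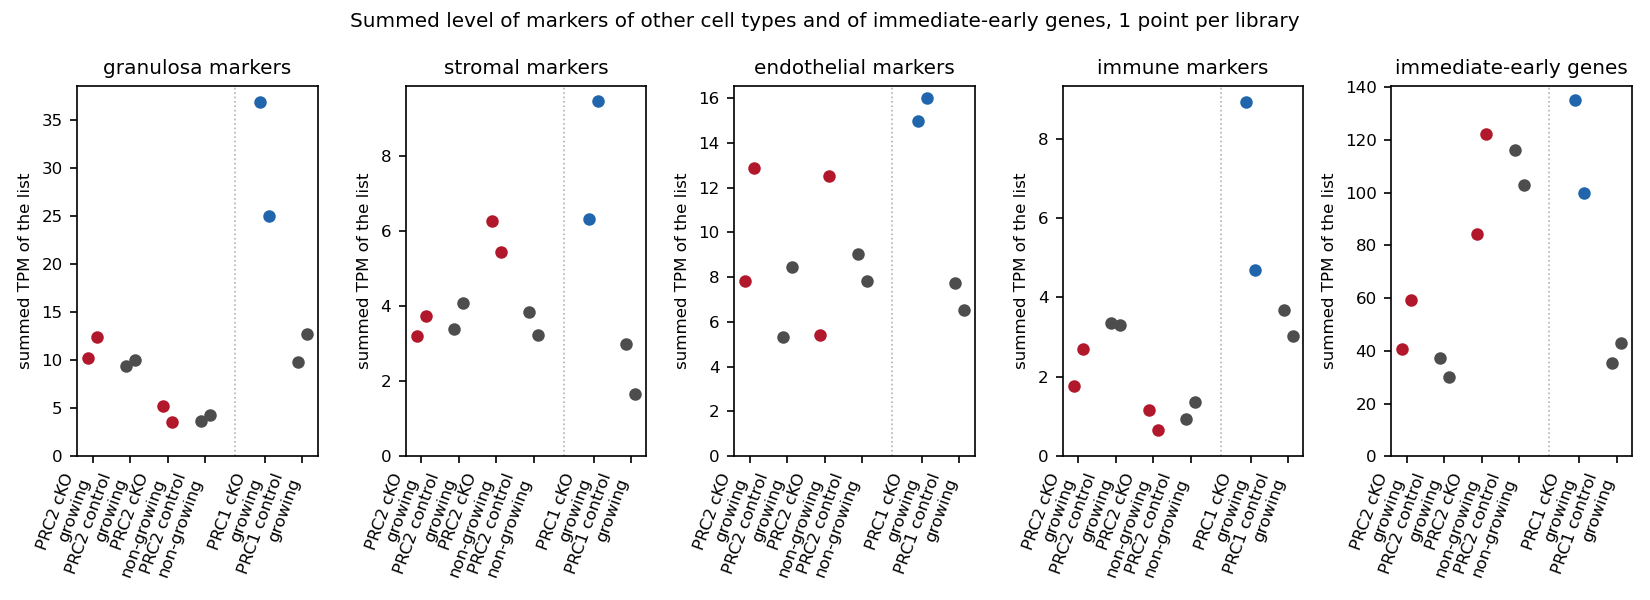
Summed TPM of marker lists of granulosa, stromal, endothelial and immune cells and of immediate-early genes, with 1 point per library in the colours used for the Id genes. The PRC1 cKO libraries exceed their controls in each of the 5 lists, and the immediate-early sum of PRC2 libraries is 84.5 to 122 TPM in non-growing and 30.1 to 59.4 TPM in growing oocytes.

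Of the receptor-regulated SMADs, Smad5 (chr13:56703010-56742377, plus strand) was the main one, with 74.3% to 85.6% of the summed TPM of Smad1, Smad5 and Smad9 in each library. It had 8.01 and 8.85 TPM in PRC2 cKO growing oocytes, 8.23 and 7.99 TPM in control growing oocytes, 10.8 and 10.4 TPM in the non-growing PRC2 cKO oocytes, and 12.9 and 11.7 TPM in control non-growing oocytes. In PRC1 it had 13.4 TPM in both cKO libraries, against 7.88 and 9.11 TPM in control. The PRC2 growing libraries were all below the non-growing ones, and the PRC1 cKO libraries were above their controls. Of all genes tested, 54.1% in PRC2 cKO and 66.2% in PRC2 control shared the first order, and 62.3% shared the second. Smad5 fell during growth in PRC2 control by 0.54 on the log2 scale (SE 0.13, limma adjusted p = 0.00939), which trimmed-mean and quantile scaling turned to 0.15 and 0.001. The changes were -0.30 during growth in PRC2 cKO (limma adjusted p = 0.0867), which trimmed-mean and protein-coding scaling turned to 0.21 and 0.15, and 0.60 in PRC1 cKO (limma adjusted p = 0.0578). Against control, PRC2 cKO gave 0.05 in growing oocytes (limma adjusted p = 0.91), which quantile and trimmed-mean scaling turned to -0.12 and -0.03, and -0.19 in non-growing oocytes (limma adjusted p = 0.49).

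Smad1 (chr8:79338395-79399518, minus strand) was lower in level. It had 1.45 and 1.67 TPM in PRC2 cKO growing oocytes, 1.38 and 1.10 TPM in control growing oocytes, 1.73 and 2.41 TPM in the non-growing PRC2 cKO oocytes, and 2.69 and 3.06 TPM in control non-growing oocytes. Smad1 fell during growth in control by 0.79 on the log2 scale (SE 0.18, limma adjusted p = 0.00697), with no overlap of the stages, an order that 66.2% of all genes shared. The change was at percentile 44.8 of all genes, and its call was lost under trimmed-mean and protein-coding scaling, at -0.29 and -0.52 (limma adjusted p = 0.179 and 0.0547). In PRC2 cKO the change was -0.25 (limma adjusted p = 0.256), or 0.11 with trimmed-mean and 0.07 with protein-coding scaling. In the difference of cKO effects between stages Smad1 gave 0.54 (SE 0.26, limma adjusted p = 0.345), from a value of 0.19 in growing and -0.34 in non-growing oocytes. In PRC1 it had 3.23 and 2.74 TPM in cKO, against 1.65 and 1.21 TPM in control, and rose by 0.72 on the log2 scale (SE 0.21, limma adjusted p = 0.0414). The call was held in only 4 of 10 other settings. That change was near the median of all genes, became -0.11 with quantile normalization, and lost its call in each of 4 fits without 1 library and with the replicate block (limma adjusted p = 0.104).

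Smad9 (chr3:54755582-54801257, plus strand) encodes the SMAD also known as SMAD8. It had 0.54 and 0.38 TPM in PRC2 cKO growing oocytes and 0.32 and 0.24 TPM in control growing oocytes, and 0.70 and 0.55 TPM in the non-growing PRC2 cKO oocytes against 0.31 and 0.21 TPM in control. Both PRC2 cKO libraries lay above their controls at each stage, as in 20.3% of all genes tested in non-growing and 23.5% in growing oocytes, but the gene did not reach the filter there. In PRC1 it had 1.40 and 1.06 TPM in cKO, against 0.31 and 0.42 TPM in control. It passed the filter only through the PRC1 cKO libraries, so it had to differ. The change was 0.71 (SE 0.16, limma adjusted p = 0.0213), near the median of all genes, and -0.29 with quantile normalization.

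**Figure D4:**
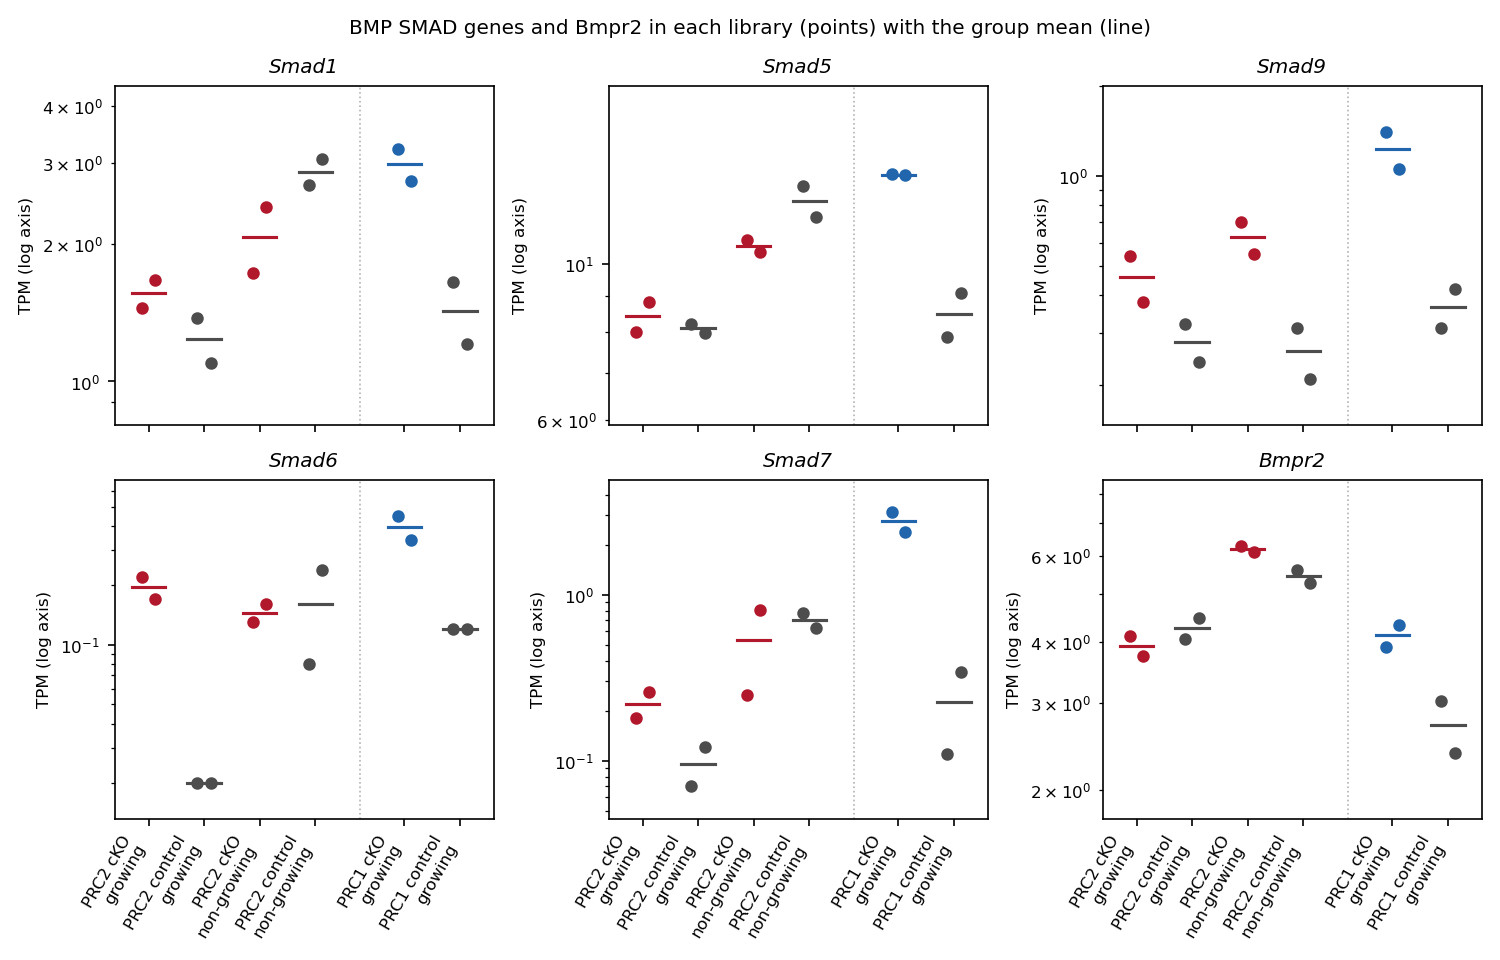
TPM of Smad1, Smad5, Smad9, Smad6, Smad7 and Bmpr2 on log axes in each library, with the group mean as a line and colours as for the Id genes. Smad7 lies at 2.38 and 3.13 TPM in PRC1 cKO and at 0.81 TPM or less in every other library.

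Smad7 was the inhibitory SMAD gene tested in PRC1 cKO, and it rose. Smad7 (chr18:75367529-75395935, plus strand), which blocks both BMP and TGF-beta receptors, had 3.13 and 2.38 TPM in PRC1 cKO, against 0.11 and 0.34 TPM in PRC1 control. It too passed the filter only through the 2 PRC1 cKO libraries, so it had to be higher there. Its log2 change was 1.62 (SE 0.20, limma adjusted p = 0.00444), or 3.06-fold in TPM + 1, at percentile 88.2 of all changes. In the PRC2 table Smad7 had 0.18 and 0.26 TPM in cKO growing oocytes and 0.07 and 0.12 TPM in control growing oocytes, and 0.25 and 0.81 TPM in cKO non-growing oocytes against 0.77 and 0.63 TPM in control. It was not tested there.

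Smad6 (chr9:63953076-64022059, minus strand), an inhibitor mainly of BMP signalling, was at 0.45 TPM or less in every library. It had 0.45 and 0.34 TPM in PRC1 cKO, against 0.12 TPM in both PRC1 controls. In the PRC2 table it had 0.22 and 0.17 TPM in cKO growing oocytes and 0.02 TPM in both control growing libraries, and 0.13 and 0.16 TPM in cKO non-growing oocytes, inside the range of 0.08 and 0.24 TPM in control. It reached the filter in neither table, and at these levels values without a depth carry little precision.

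Bmpr2 (chr1:59763400-59879014, plus strand), the type II receptor, moved little. It had 4.11 and 3.75 TPM in PRC2 cKO growing oocytes, 4.06 and 4.47 TPM in control growing oocytes, 6.28 and 6.09 TPM in the non-growing PRC2 cKO oocytes, and 5.62 and 5.28 TPM in control non-growing oocytes. In PRC1 it had 3.91 and 4.34 TPM in cKO, against 3.04 and 2.38 TPM in control. Growing libraries were below non-growing ones in both genotypes, an order that 54.1% of all genes shared in cKO and 66.2% in control. Bmpr2 fell by 0.54 on the log2 scale in PRC2 cKO (SE 0.15, limma adjusted p = 0.015), near the median of all genes. That call was lost under quantile, trimmed-mean and protein-coding scaling, at -0.41, -0.07 and -0.14 (limma adjusted p = 0.0773, 0.713 and 0.476), in a fit of only the 2 groups compared (limma adjusted p = 0.0712) and in 2 of 8 fits without 1 library. The other changes were -0.29 during growth in control (limma adjusted p = 0.115), where quantile, trimmed-mean and protein-coding scaling gave 0.18, 0.34 and 0.12, and 0.47 in PRC1 cKO (limma adjusted p = 0.136), where quantile normalization gave -0.30. Against control, PRC2 cKO gave -0.09 in growing and 0.16 in non-growing oocytes (limma adjusted p = 0.829 and 0.613).

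**Figure D5:**
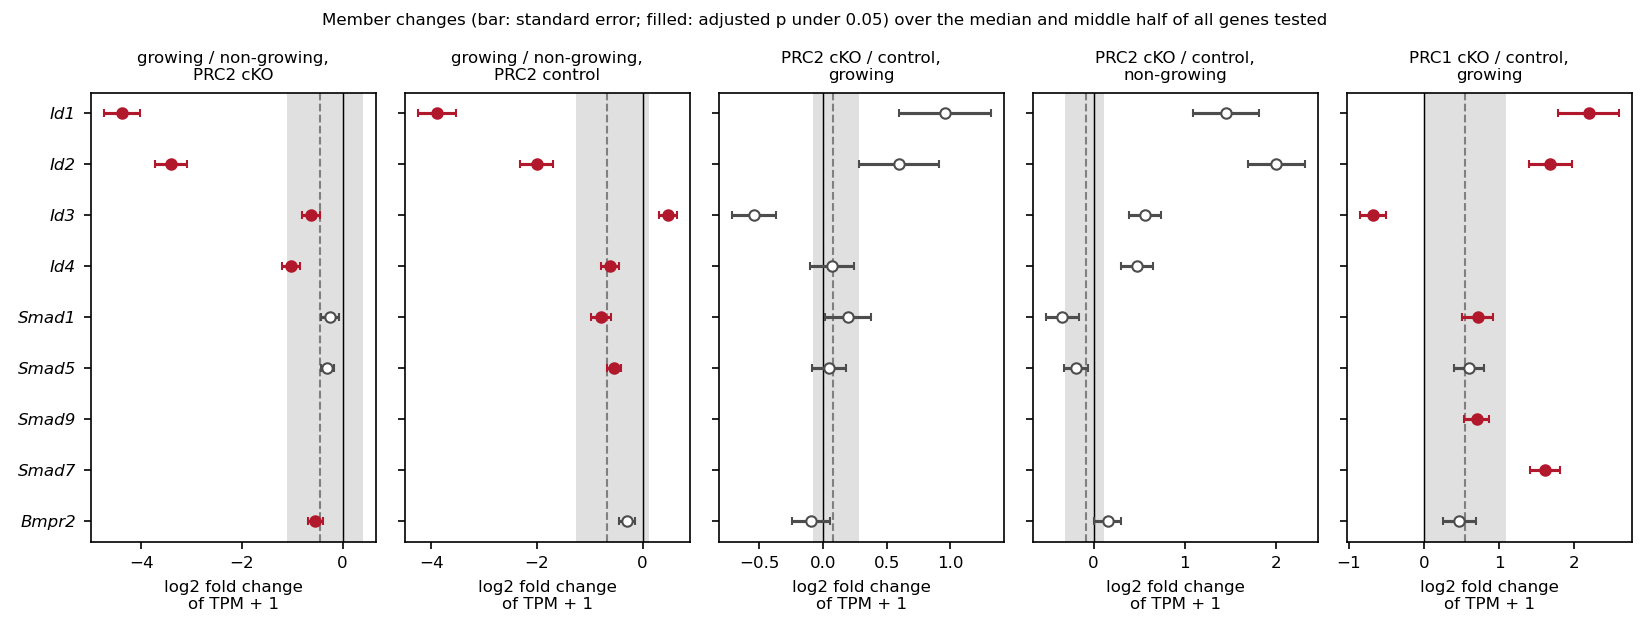
Log2 fold change of TPM + 1 of each member tested in 5 comparisons, with bars for 1 standard error, filled red points for genes that passed, a dashed line at the median of all genes tested and a grey band over the middle 50% of their changes. Id1 and Id2 lie outside the band in all 5 panels, and Smad1, Smad5, Smad9 and Bmpr2 lie in or close to it.

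Genes around the members were taken from 7 lists of the pathway with 82 genes, chosen with earlier results of these data known. In PRC2 cKO against control, 0 of 40 tested passed in growing oocytes, in non-growing oocytes and in the difference of effects by limma, where 0, 6 and 6 had an unadjusted p under 0.05. During growth, 13 rose and 14 fell in PRC2 cKO, and 9 rose and 17 fell in PRC2 control. Over all genes, 20.1% were called higher and 46% lower in cKO, and 16.6% higher and 54% lower in control. In PRC1 cKO, 19 of 46 tested rose and 4 fell, with a median of 0.36 against 0.55 over all genes, so this list did not exceed the background of 41.3% called higher. Among the 19, Bmp7, Bambi, Bmper, Skil, Inhba, 1 receptor and 4 other BMP targets passed the filter only through the cKO libraries. The filter fixed their direction.

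Ligands rose during growth, 4 of 5 tested in either genotype, where 20.1% of all genes were called higher in cKO and 16.6% in control. Bmp5 is 1 of these 4, and the filter fixed the direction of its change. Bmp15 and Gdf9, the oocyte's own, were the highest in level. Bmp15 had 308 and 430 TPM in PRC2 cKO growing oocytes, 362 and 460 TPM in control growing oocytes, 8.07 and 9.98 TPM in the non-growing PRC2 cKO oocytes, and 13.9 and 14.3 TPM in control non-growing oocytes. Its change during growth was 5.19 in PRC2 cKO and 4.76 in PRC2 control (limma adjusted p = 4.52e-06 and 6.44e-06). Gdf9 had 3329 and 4284 TPM in PRC2 cKO growing oocytes, 3706 and 4019 TPM in control growing oocytes, 377 and 420 TPM in the non-growing PRC2 cKO oocytes, and 596 and 637 TPM in control non-growing oocytes. It rose by 3.24 in cKO and 2.65 in control, Bmp5, which passed the filter only through growing libraries, by 3.84 and 3.92, and Bmp6 by 2.07 and 2.48, and in the TGF-beta arm Tgfb2 rose by 3.67 and 3.86. Bmp15 and Gdf9 thus rose across the same step in which Id1 and Id2 fell. Of the intracellular regulators, 4 rose and 7 fell of 14 in cKO, and 2 rose and 9 fell in control, among them Fkbp1a, which keeps type I receptors silent, at -0.84 in cKO and -1.23 in control, and the SMAD phosphatase Ctdsp2 at -1.43 and -1.44. Of the 3 E protein genes, partners of ID proteins, 2 fell in either genotype, led by Tcf12 at -1.21 in cKO and by Tcf4 at -1.80 in control. Over all genes, 46% were called lower in cKO and 54% in control, so falls like those of the regulators and E proteins were common.

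In PRC1 cKO the ligands parted. Bmp15 had 22.1 and 74.2 TPM in PRC1 cKO, against 448 and 354 TPM in PRC1 control, and fell by 3.26 on the log2 scale (SE 0.56, limma adjusted p = 0.00923). Gdf9 had 1572 and 2205 TPM in PRC1 cKO, against 4864 and 5225 TPM in PRC1 control, and fell by 1.44 (SE 0.20, limma adjusted p = 0.00552). Bmp7, a ligand known from many epithelia and from theca cells of the ovary, had 13.2 and 8.12 TPM in PRC1 cKO, against 0.32 and 0.89 TPM in PRC1 control, and rose by 2.85 (SE 0.33, limma adjusted p = 0.00376). It passed the filter only through the PRC1 cKO libraries, so it had to differ. In each of these 3 genes the cKO and control libraries did not overlap, with cKO lower for Bmp15 and Gdf9, as in 15.2% of all genes, and higher for Bmp7, as in 62.3%.

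Of the other BMP targets, 6 of 12 were tested in PRC1 cKO, and 5 of these 6 passed the filter only through the cKO libraries, so they had to be higher there. They were Atoh8, Gata2, Hey2, Msx1 and Msx2, and their values are a description. Over all genes, 2194 of 14941 entered in this way, and 2034 of them were called higher. The sixth target tested was Hey1, a gene of the Hairy family of repressors, which rose by 0.89 (SE 0.18, limma adjusted p = 0.0144), at percentile 66.4 of all changes. Gata2 had 1.70 and 1.21 TPM in PRC1 cKO, against 0.05 and 0.02 TPM in control, a change of 1.24 (SE 0.17, limma adjusted p = 0.00508). Atoh8 had 2.58 and 1.32 TPM in cKO, and was listed at 0 and at 0.05 TPM in control, a change of 1.49 (SE 0.24, limma adjusted p = 0.00817). The pseudoreceptor Bambi, itself a BMP target, had 2.81 and 2.59 TPM in cKO, against 0.69 and 0.78 TPM in control, a change of 1.09 (SE 0.17, limma adjusted p = 0.00772). In all 3 genes both cKO libraries lay above both controls, the order of 62.3% of all genes. The SMAD corepressor Skil rose by 1.47 and the activin subunit Inhba by 1.73 (limma adjusted p = 0.00633 and 0.00468). Bambi, Skil and Inhba also passed the filter only through the cKO libraries. Against 41.3% of all genes called higher and 6.45% lower, of the receptors 4 of 7 rose and none fell. Of the extracellular inhibitors 2 of 4 rose, and of the intracellular regulators 4 of 14 rose and 1 fell. Of the TGF-beta arm 2 of 7 rose and 1 fell, and of the E proteins 1 of 3 rose. Both inhibitors that rose, Bambi and Bmper, and 1 of the receptors that rose passed the filter only through the cKO libraries. So did 1 of the regulators that rose, Skil, and 1 of the TGF-beta arm, Inhba. The direction of these calls was fixed by the filter.

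Type I receptors pair with Bmpr2, and SMAD4 is the common partner of the receptor-regulated SMADs. Bmpr1b was the main type I receptor gene, at 38.5 and 40.1 TPM in PRC2 cKO growing oocytes, 37.7 and 48.0 TPM in control growing oocytes, 16.6 and 18.6 TPM in the non-growing PRC2 cKO oocytes and 18.4 and 18.6 TPM in control non-growing oocytes. In PRC1 it was at 20.2 and 29.2 TPM in cKO and 42.4 and 36.1 TPM in control. Bmpr1a was at 3.51 to 8.47 TPM and Acvr1 at 0.27 to 0.97 TPM over all 12 libraries. Smad4 was at 12.8 and 12.6 TPM in PRC1 cKO, against 12.6 and 11.4 TPM in PRC1 control, and at 11.8 to 27.3 TPM in the PRC2 libraries.

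The genes with the profile most like each Id gene over the 8 PRC2 libraries were found by the root mean square distance of centred log2(TPM + 1). The search covered 7537 tested genes with a mean of at least 5 TPM, leaving out the members and predicted gene models, recognized by their names. Nearest to Id1 were Teddm2 at a distance of 0.35, Tepp at 0.53 and Plac1 at 0.56, against a spread of Id1 about its own mean of 2.19. Nearest to Id2 were Plk2 at 0.31, Rhox2d at 0.43 and Rhox2g at 0.44, against a spread of 1.57, and the Rhox2 genes are near-identical copies whose reads may be shared. Plk2 had 1.77 and 1.90 TPM in PRC2 cKO growing oocytes, 0.64 and 1.13 TPM in control growing oocytes, 18.8 and 36.0 TPM in cKO non-growing oocytes, and 10.7 and 10.8 TPM in control non-growing oocytes. Like Id2 it was highest in replicate 2 of the PRC2 cKO non-growing oocytes. Id3 was closest to Ttc32, Hnrnph1 and Zfp383, at 0.13 to 0.19 against its spread of 0.31, and Id4 to Faim, Ptp4a2 and Ythdc1, at 0.09 to 0.11 against 0.45.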

How the data were processed

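The 12 oocyte libraries were put into 6 groups of 2 by their titles. The authors deposited TPM values in 2 tables, one with 8 PRC2 and one with 4 PRC1 libraries, and no test crosses them. Per the labels' protocols, RNA came from RNeasy Plus Micro columns, libraries from the NEBNext low-input kit, and reads were paired and 150 bases long. The submitters' processing notes list RSEM 1.3.3, Subread 2.0.3, SAMtools, HISAT2 and Trim Galore 0.6.10, and GRCm38/mm10. The tool behind the TPM, the use of strand and the handling of reads with several matches are not stated there. Every column sums to about 1000000, so depth is unknown and a rise in abundant models lowers all others.

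Genes at 1 TPM or more in 2 or more libraries were kept, 14153 in the PRC2 and 14941 in the PRC1 table. This left 7 members tested in PRC2 and 8 in PRC1. Smad6 was tested in neither table, Smad7 and Smad9 only in PRC1 and Id4 only in PRC2. Linear models of log2(TPM + 1) came from limma 3.58.1 under R 4.3.3, with a mean-variance trend and two-sided tests, all groups of a table together and no covariate, with Benjamini-Hochberg adjustment over all genes of a contrast. The fit was tested on simulated data. Percentiles rank a member's log2 change among all genes tested. Members and gene lists were chosen with earlier results of these data known, and the immediate-early list was added after the members' values were seen. Named genes were the 10 members, up to 8 genes of the wider lists per contrast in order of p, the levels of 6 ligand, receptor and SMAD genes, and the 3 nearest profiles of each Id gene. Marker and immediate-early genes named beside a result were chosen after their values were seen. Gene classes came from GENCODE on GRCm38, and promoters from RefSeq.

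Alternatives were pseudocounts of 0.1 and 5, no filter and a filter at 5 TPM, 3 scalings (quantile, trimmed-mean and to nuclear protein-coding genes), limma without the trend and with robust variances, the replicate number as a block, fits of only the 2 groups compared, a 2-fold minimum and each library left out.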

Additional observations from a re-analysis of the deposited data

Results flagged for a closer look

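Id3 and Smad1 were flagged because their PRC2 cKO and control libraries did not overlap at either stage, in opposite directions. That order was the rule for the flag and is not a separate result. The PRC2 cKO effect on Id3 had opposite signs at the 2 stages, with both growing cKO libraries below and both non-growing cKO libraries above their controls. Over all genes, cKO lay below control without overlap in 13% in growing oocytes and above it in 20.3% in non-growing oocytes. The share of genes with both orders was not counted. The difference of the log2 changes, growing minus non-growing, was -1.10 (SE 0.25, limma adjusted p = 0.285). It ranged from -1.35 to -0.85 over fits that left out 1 library, and its adjusted p from 0.0842 to 0.631. It failed the correction over all genes.

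Smad1 showed the reverse order, with both growing cKO libraries above and both non-growing cKO libraries below their controls. In growing oocytes, 23.5% of all genes had cKO above control without overlap. The difference was 0.54 (SE 0.26, limma adjusted p = 0.345), with a range of 0.38 to 0.70 over fits without 1 library. It did not pass either.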

How the results depend on the processing

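Of 807 results for single members under the alternatives, 788 kept their sign, 729 also their side of the threshold, 55 lost and 4 gained a call, and 19 reversed. The cause of the shifts was not tested.

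Reversed values in PRC2 cKO growing oocytes were Id4 at -0.046 (quantile) and Smad5 at -0.115 (quantile) and -0.029 (trimmed-mean), and over fits without 1 library Id4 ranged from -0.038 to 0.175 and Smad5 from -0.016 to 0.113. In the difference of effects Smad5 was at -0.068 (quantile), and Id1 ranged from -1.092 to 0.113 over fits without 1 library, the highest without PRC2 cKO non-growing replicate 2. During growth in control Smad5 was at 0.001 (quantile) and 0.152 (trimmed-mean), and Bmpr2 at 0.18 (quantile), 0.34 (trimmed-mean) and 0.122 (protein-coding). During growth in cKO Smad1 was at 0.11 and Smad5 at 0.212 (trimmed-mean), and at 0.072 and 0.153 (protein-coding). In PRC1 cKO quantile normalization gave Smad1 -0.107, Smad9 -0.285 and Bmpr2 -0.299.

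Members called in growth, 6 in control, became 3 with trimmed-mean scaling, 2 with a 2-fold minimum and 3 to 6 without 1 library. The 5 in cKO became 3 with quantile, trimmed-mean or protein-coding scaling, in a fit of only the 2 groups compared and with a 2-fold minimum, and 3 to 5 without 1 library. The 6 in PRC1 cKO became 3 with no filter, with the 5 TPM filter and with a 2-fold minimum, and 2 to 5 without 1 library, the fewest without PRC1 cKO replicate 1. In PRC2 cKO non-growing oocytes, 0 became 0 to 2 without 1 library. In such fits the lone library of a group is assumed to vary like the other groups. The 5 TPM filter left Id4 and Smad1 in PRC2, and Smad1, Smad7, Smad9 and Bmpr2 in PRC1, without a value. Over all genes, the 9986 calls in growth in control became 8163 with trimmed-mean scaling and 6577 with a 2-fold minimum. The 9360 in growth in cKO became 9017, 8605 and 8644 with quantile, trimmed-mean and protein-coding scaling. They became 8230 in a fit of only the 2 groups compared and 6015 with a 2-fold minimum. In PRC1 cKO the 7140 became 6301 with no filter and 4583 with a 2-fold minimum.

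Over all genes, the 44 calls in PRC2 cKO non-growing oocytes became 87 with a pseudocount of 5, 91 with no filter, 29 with trimmed-mean scaling and 10 in a fit of 2 groups. The 24 in growing oocytes became 50 with no filter, 12 without trend and 1 in a fit of 2 groups. The 7140 in PRC1 cKO became 4809 with the 5 TPM filter and 2953 to 6390 without 1 library.

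The replicate numbers share only a number. The deviations of same-numbered libraries had a correlation of -0.27 in PRC1 and of -0.03 to 0.26 among PRC2 groups. The replicate block left 0, 0, 0, 6, 5 and 4 members called in the 6 comparisons, with 20, 16, 5, 10171, 9543 and 5094 genes in all. Crossing the numbers in PRC1, an alternative chosen after seeing the data, gave 7 members and 9501 genes.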
